A study of Mus musculus with 12 samples.

Results

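Gjd2, Strn4, Gga1 and Cln8 are 4 of the 37991 genes in the count table and 4 of the 17623 that passed the filter on low counts. They were selected on these same data, by symbol, because their levels separated Gli1Het from Gli1Null neural stem cells (NSCs) on cuprizone, so their difference between the genotypes on that diet is given as a description and is not tested. Gjd2 passed the filter through the groups in which it was detected, since the Gli1Het cuprizone libraries held 1 of its reads in all.

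RNA was sequenced from GFP+ NSCs that had been sorted from the subventricular zone (SVZ), the germinal layer beside the lateral ventricle, in 12 libraries. Gli1Het mice were Gli1 CreERT2/+ with the RCE GFP reporter (RCEfx/fx) and Gli1Null mice were Gli1 CreERT2/CreERT2 with the same reporter, both C57BL/6. Since CreERT2 is knocked into the Gli1 locus, both genotypes carried a disrupted Gli1 allele. The loss in Gli1Null mice was global rather than limited to NSCs. The GFP label marked cells that had expressed the Gli1 locus when tamoxifen was given at 10 weeks of age. That label is permanent, so the sorted cells, called NSCs here, can include cells that the labelled cells had since produced. The mice then stayed on a control diet or received 0.2% cuprizone, a copper chelator that kills oligodendrocytes, for 3 weeks. Each of the 4 groups held 3 libraries, and each library pooled the SVZ of 2 mice, a male and a female, so the p-values measure the spread between pools. Levels are CPM, the counts of a gene scaled by all counts in genes, and those totals were 13752801 to 32468063 per library and lowest in Gli1Het libraries. A gene was called changed where the quasi-likelihood test of edgeR gave a p under 0.05 after Benjamini-Hochberg adjustment over all 17623 genes, and every adjusted p given here is from that edgeR test unless another tool is named. Standard errors (SE) are those of its fit. Log2 fold changes are cuprizone over control, or Gli1Het over Gli1Null.

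The targeted gene was checked first. Gli1 was at 8.65, 18.3 and 17.8 CPM in Gli1Het control replicates 1, 2 and 3 and at 0.293 to 0.389 CPM in the Gli1Null control libraries. On cuprizone it was at 21.5 CPM in Gli1Het replicate 1 and 3.84 CPM in replicate 3, and at 0.469 to 0.739 CPM in the Gli1Null libraries. For the library labelled Gli1Het cuprizone replicate 2 its level was 0.837 CPM, with a 95% counting interval (Poisson) of 0.541 to 1.24 that reaches into the Gli1Null range, so the diet results of the members and the counts of the lists are also given without this library. Stem cell and astrocyte markers summed to 5588 to 9761 CPM in the control libraries and 10267 to 13873 CPM in the cuprizone libraries. None of the 12 markers was at 0 throughout. On cuprizone 5 of them were called higher and 0 lower in Gli1Het NSCs (2 to 6 higher without 1 library). Over all genes 18.8% were called higher and 15.3% lower there. In Gli1Null NSCs 1 marker was called higher (0 to 3 without 1 library), where 3.37% of all genes were. Neuroblast markers, the genes of the migrating young neurons that NSCs produce, were lower in the cuprizone libraries, by a median of 0.67, 4.65 and 2.39 on the log2 scale in Gli1Het replicates 1, 2 and 3 and of 0.60 to 0.73 in Gli1Null libraries, relative to the 6 control libraries. In bulk RNA, fewer cells of a type and less RNA per cell cannot be told apart.

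The 4 genes act in different parts of the cell. Gjd2 encodes connexin 36, the gap junction protein that forms electrical synapses between neurons. Strn4 encodes striatin 4, also called zinedin, one of the striatins that scaffold protein phosphatase 2A and germinal centre kinases in the STRIPAK complex. Gga1 encodes an adaptor that recruits clathrin at the trans-Golgi network and sorts mannose 6-phosphate receptors, with their lysosomal cargo, towards endosomes. Cln8 encodes a membrane protein of the endoplasmic reticulum (ER) that helps newly made lysosomal enzymes leave the ER, and its loss causes neuronal ceroid lipofuscinosis, a lysosomal storage disease, in humans and in the mnd mouse. Gga1 and Cln8 thus act at successive steps of the delivery of enzymes to the lysosome.

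On the mm10 build with GENCODE M21, Gjd2 lies on the minus strand of chromosome 2 (114009601 to 114013619), Strn4 on the plus strand of chromosome 7 (16815889 to 16840931), Gga1 on the plus strand of chromosome 15 (78877190 to 78894585) and Cln8 on the plus strand of chromosome 8 (14881335 to 14901720). The 250 bases before the start site of the 3 members that were matched in the RefSeq table (GRCm38.p6) are shown because these 3, Gjd2, Strn4 and Gga1, were lower together in Gli1Het cuprizone NSCs. Each is written 5′ to 3′ on the strand of its gene, with the motif matches described next in capitals.
Gjd2, chr2:114013620-114013869: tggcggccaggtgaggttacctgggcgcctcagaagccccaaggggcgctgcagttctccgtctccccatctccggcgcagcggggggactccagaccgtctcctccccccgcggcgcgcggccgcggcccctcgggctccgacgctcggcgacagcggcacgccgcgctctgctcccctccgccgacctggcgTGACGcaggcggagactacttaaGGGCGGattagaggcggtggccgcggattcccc
Strn4, chr7:16815639-16815888: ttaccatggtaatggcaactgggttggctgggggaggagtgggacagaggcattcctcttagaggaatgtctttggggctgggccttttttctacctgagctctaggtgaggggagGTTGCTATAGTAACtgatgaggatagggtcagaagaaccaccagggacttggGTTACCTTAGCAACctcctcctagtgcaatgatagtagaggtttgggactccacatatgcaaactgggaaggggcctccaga
Gga1, chr15:78876940-78877189: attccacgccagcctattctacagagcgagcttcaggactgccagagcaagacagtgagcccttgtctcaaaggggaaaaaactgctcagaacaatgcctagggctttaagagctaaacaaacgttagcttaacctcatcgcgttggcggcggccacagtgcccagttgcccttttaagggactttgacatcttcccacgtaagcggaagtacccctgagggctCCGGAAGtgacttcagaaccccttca

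A set of 6 motifs was searched on both strands of these windows, and 3 more were added after the letters had been read. The GLI site GACCACCCA, the cAMP response element TGACGTCA, the C/EBP-ATF site TGATGNAA, the E-box CACGTG and the TATA box TATAAA had no match in the 3 windows. They occur in 0.211%, 1.62%, 3.53%, 6.05% and 13.0% of the windows of 27025 genes. Gjd2 held a GC box, GGGCGG, found in 32.9% of windows, and the core TGACG of the cAMP response element, found in 17.9%. Gga1 held the ETS site CCGGAAG, found in 7.05%. Strn4 held 2 copies of the palindromic X-box GTTNCNNNNGNAAC, the kind of site that RFX factors of ciliated cells bind, at 134 to 121 and 82 to 69 bases before the start, and 0.818% of windows held at least 1. Strn4 was the 1 gene of the 27025 whose window held 2 or more. The X-box was chosen because its letters had been seen in Strn4, so this is a description of the sequence, and no binding was measured. The G and C content was 74.0% in the Gjd2 window, 51.6% in that of Strn4 and 52.4% in that of Gga1, with a median of 52.0% over all genes, and the windows held 33, 0 and 10 CpG pairs. No motif was shared by the 3 windows.

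On the control diet, none of the 4 genes passed the test between the genotypes. The difference between the genotypes on this diet took no part in the selection of the members. The control libraries, however, entered the fit of all 12 libraries that set the spread for the comparison on cuprizone. Without any one of them that fit called 0 or 1 genes there instead of 7. The control values of the members are therefore not fully independent of the selection. The adjusted p was 1 for each, 0 of the 4 were called, and 0.0% of all genes were called, with 253 of 17623 at an unadjusted p under 0.05 and 1 called by DESeq2. Gjd2 was at 1.02, 1.22 and 0.685 CPM in Gli1Het replicates 1, 2 and 3 and at 0.955, 1.01 and 0.879 CPM in Gli1Null replicates 1, 2 and 3. The ranges overlapped, and the ratio of the pooled levels (summed counts over summed library totals) was 1.00 (95% counting interval 0.709 to 1.41). Cln8 was at 63.8, 63.8 and 65.4 CPM in Gli1Het and at 59.9, 61.1 and 61.1 CPM in Gli1Null libraries. Each Gli1Het library was slightly above each Gli1Null library, with a log2 fold change of 0.07 (SE 0.0925). Strn4 was at 168, 210 and 194 CPM in Gli1Het and at 221, 221 and 222 CPM in Gli1Null libraries, a log2 fold change of -0.23 (SE 0.122). Gga1 was at 69.7, 78.0 and 73.2 CPM in Gli1Het and at 88.0, 81.7 and 98.1 CPM in Gli1Null libraries, a log2 fold change of -0.30 (SE 0.126). For Strn4 and Gga1 every Gli1Het control library thus lay below every Gli1Null control library, the direction in which they differed on cuprizone. Of all genes, 7.71% had control groups that did not overlap, against 3 of these 4.

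Per kilobase of exon, which allows levels to be compared between genes, Strn4 was at 24.0 CPM in Gli1Het control NSCs, Gga1 at 19.6, Cln8 at 8.46 and Gjd2 at 0.338. Strn4 and Gga1 were therefore well expressed and Gjd2 was near the lower limit of detection, at the 15.7th percentile of the genes that passed the filter. The replicates were tightest for Strn4 in Gli1Null NSCs, where the SD was 0.391% of the mean on the control diet and 1.00% on cuprizone, against 10.95% and 15.1% in Gli1Het NSCs.

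Gjd2 was nearly absent from Gli1Het cuprizone NSCs and present in every other group. The counts were 14, 29 and 19 in Gli1Het control replicates 1, 2 and 3, 1, 0 and 0 in Gli1Het cuprizone replicates, 29, 31 and 24 in Gli1Null control replicates and 66, 26 and 38 in Gli1Null cuprizone replicates. A count of 0 allows up to 0.1004 CPM in replicate 2 and 0.213 CPM in replicate 3, and intervals here cover counting error only. Every Gli1Het cuprizone library thus lay below every library of the other 3 groups, of which the lowest was at 0.685 CPM. In Gli1Het NSCs the ratio of the pooled level (summed counts over summed library totals) on cuprizone to that on the control diet was 0.0178 (95% counting interval 0.000445 to 0.103). Gjd2 was called lower there (adjusted p = 0.00124, with 6.44e-05 to 0.0305 over the alternatives and 0.00297 without the library labelled Gli1Het cuprizone replicate 2). This p rests on the cuprizone libraries on which Gjd2 was selected and on a gene that passed the filter through its other groups, so it is no independent evidence of the difference. In Gli1Null NSCs Gjd2 was at 2.06, 0.939 and 1.17 CPM on cuprizone, so replicate 1 stood above the others and replicate 2 lay within the control range. The log2 fold change there was 0.59 (SE 0.457, adjusted p = 0.531), and the ratio of the pooled levels was 1.49 with a 95% interval of 1.121 to 1.98 from counting error alone. The order of the group means was Gli1Null cuprizone (1.39 ± 0.595 CPM, SD, n = 3), Gli1Het control (0.974 ± 0.269), Gli1Null control (0.946 ± 0.0638) and Gli1Het cuprizone (0.0221 ± 0.0383), and the first 3 overlapped.

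**Figure D1:**
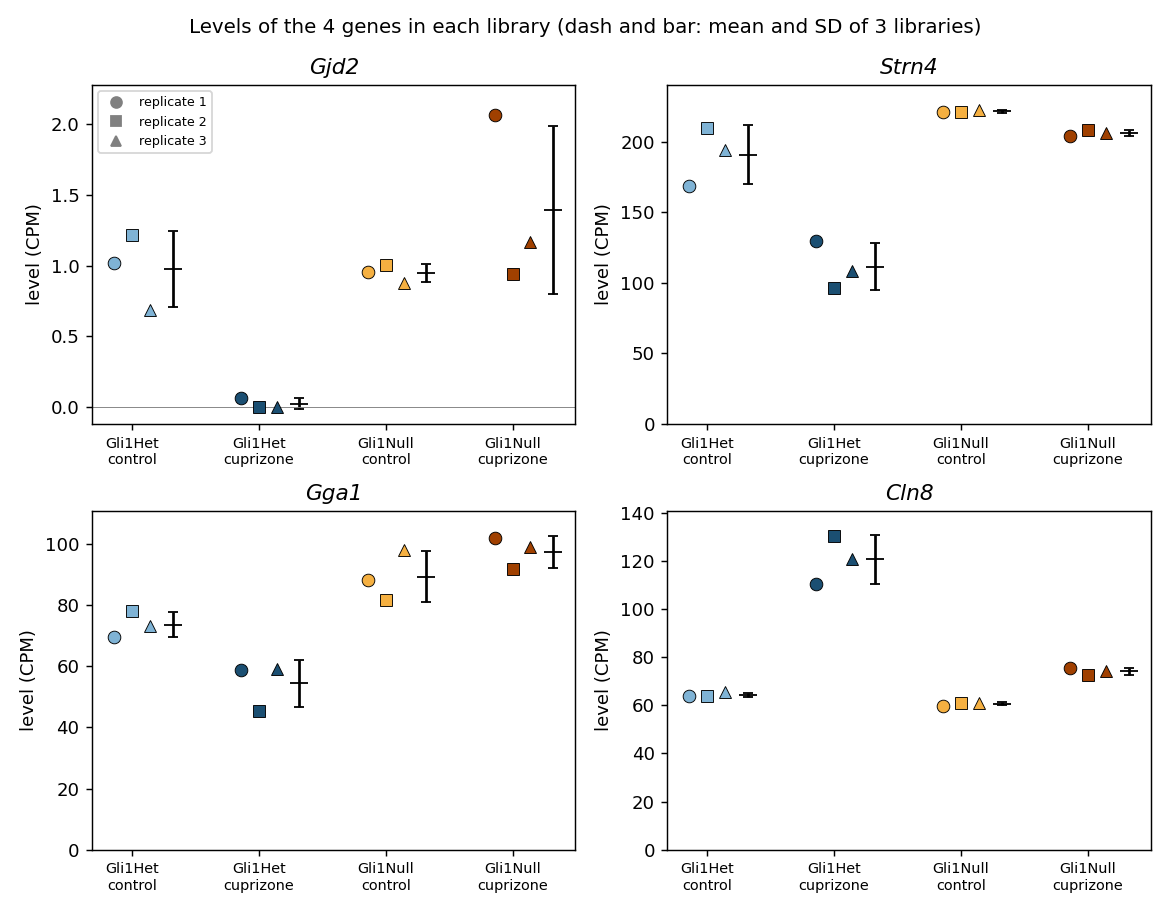
Levels of Gjd2, Strn4, Gga1 and Cln8 in CPM (linear axes) in each library of the 4 groups, with a symbol for each replicate number and the mean and SD of 3 libraries beside them. The Gli1Het cuprizone libraries sit apart from the other groups in each panel, lowest for Gjd2 (0 to 0.0664 CPM), Strn4 (96.5 to 130 CPM) and Gga1 (45.3 to 59.0 CPM) and highest for Cln8 (110 to 130 CPM).

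Strn4 fell on cuprizone in Gli1Het NSCs and differed little between the diets in Gli1Null NSCs. It was at 130, 96.5 and 108 CPM in Gli1Het cuprizone replicates 1, 2 and 3, all below the lowest Gli1Het control library (168 CPM). The change was -0.79 on the log2 scale (SE 0.123, adjusted p = 0.00168, with 1.06e-07 to 0.0450 over the alternatives), and -0.69 (SE 0.112, adjusted p = 0.00149) without the library labelled Gli1Het cuprizone replicate 2. In Gli1Null NSCs on cuprizone it was at 204, 208 and 206 CPM, each below the 3 control libraries. That difference was small, with a log2 fold change of -0.07 (SE 0.122, adjusted p = 0.782).

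Gga1 fell on cuprizone in Gli1Het NSCs, while its mean was higher on cuprizone in Gli1Null NSCs, where it did not pass the test. It was at 58.7, 45.3 and 59.0 CPM in Gli1Het cuprizone replicates 1, 2 and 3, all below the lowest Gli1Het control library (69.7 CPM). The change was -0.45 on the log2 scale (SE 0.127, adjusted p = 0.0206, with 0.00397 to 0.11 over the alternatives). This call was lost with edgeR on these 2 groups alone (adjusted p = 0.11) and without Gli1Het control replicate 2 (adjusted p = 0.0652), and without the library labelled Gli1Het cuprizone replicate 2 the log2 fold change was -0.33 (SE 0.109, adjusted p = 0.0410). In Gli1Null NSCs on cuprizone Gga1 was at 102, 91.6 and 98.9 CPM, which overlapped the control range of 81.7 to 98.1 CPM, and the log2 fold change was 0.16 (SE 0.126, adjusted p = 0.546).

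Cln8 was the member that rose. It was at 110, 130 and 121 CPM in Gli1Het cuprizone replicates 1, 2 and 3, all above the highest Gli1Het control library (65.4 CPM). The change was 0.89 on the log2 scale (SE 0.0932, adjusted p = 0.000277, with 2.72e-17 to 0.0293 over the alternatives), and 0.84 (SE 0.0867, adjusted p = 0.000140) without the library labelled Gli1Het cuprizone replicate 2. In Gli1Null NSCs on cuprizone it was at 75.4, 72.5 and 74.3 CPM, each above the highest Gli1Null control library (61.1 CPM) and below the lowest Gli1Het cuprizone library. The log2 fold change there was 0.32 (SE 0.0924, adjusted p = 0.0875, with 0.00367 to 0.286 over the alternatives), and 5 of the 18 alternatives called it. These were DESeq2 (adjusted p = 0.0300), edgeR on these 2 groups alone (0.0110), limma with library quality weights (0.00367), and edgeR without Gli1Het cuprizone replicate 1 (0.0365) or without the library labelled Gli1Het cuprizone replicate 2 (0.0249).

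In Gli1Het NSCs the diets thus separated all 4 members, 1 higher and 3 lower. Over all genes, 18.8% were called higher and 15.3% lower in that comparison, and 42.0% had groups that did not overlap. In Gli1Null NSCs 0 of the 4 were called, where 3.37% of all genes were called higher and 0.25% lower, and the groups did not overlap for Strn4 and Cln8, where 41.7% of all genes did not. Both diet comparisons share the cuprizone libraries with the comparison on which the members were selected, so they say which genotype moved and are not independent support for a difference. The difference between the 2 responses was not tested for the members.

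Between the genotypes on cuprizone, the comparison used for the selection, the log2 fold change was -0.95 for Strn4 (SE 0.124), -0.90 for Gga1 (0.127) and 0.64 for Cln8 (0.0926), and the pooled level of Gjd2 in Gli1Het was 0.0120 times that in Gli1Null NSCs (95% counting interval 0.000302 to 0.0681). The groups did not overlap for any of the 4, as for 27.6% of all genes. In the fit of all 12 libraries 7 genes passed the threshold, 3 of them higher (0.017% of genes) and 4 lower (0.0227%), and without 1 library in turn the number lay between 0 and 5096. Gpnmb led them (21.9 against 1.99 CPM), and just inside the threshold were Gga1, Apcdd1 (log2 fold change -1.35, SE 0.194), Cln8 and Snhg20 (1.18, 0.170). Just outside it were Aff1 (0.83, 0.127), Btbd2 (-1.15, 0.183) and Cd68 (2.97, 0.475). Cln8 had the smallest fold change of these 10 first genes.

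The members were also set beside the neuroblast markers, because these fell unevenly among the Gli1Het cuprizone libraries. Over all genes, 15.3% were called lower on cuprizone in Gli1Het and 0.25% in Gli1Null NSCs. Of 14 markers 10 were called lower in Gli1Het NSCs on cuprizone (median log2 fold change -1.85, against 0.02 over all genes) and 0 in Gli1Null NSCs (median -0.65). Without 1 library the number in Gli1Het NSCs was 14 without Gli1Het cuprizone replicate 1, 13 without the library labelled Gli1Het cuprizone replicate 2, and 2 to 4 without any other. Their summed level was 6388 to 7990 CPM in Gli1Het control libraries, 4127, 424 and 1426 CPM in Gli1Het cuprizone replicates 1, 2 and 3, 6721 to 7322 CPM in Gli1Null control libraries and 4092 to 4475 CPM in Gli1Null cuprizone libraries. Gli1Het cuprizone replicate 1 therefore lay within the Gli1Null cuprizone range for these markers. In that library Gjd2 had 1 count, and against the 6 control libraries' mean Strn4 was at -0.69, Gga1 at -0.49 and Cln8 at 0.80 on the log2 scale, against 0.03 to 0.05, 0.19 to 0.39 and 0.22 to 0.33 in the Gli1Null cuprizone libraries. The members were selected for this separation of the genotypes, so these values of 1 library are a description. Within the Gli1Het cuprizone group the library labelled replicate 2 had the lowest neuroblast level and also the lowest Strn4 and Gga1 and the highest Cln8. Mature neuron markers, a possible source of Gjd2 transcripts, summed to 70.1 to 126 CPM in the Gli1Het cuprizone libraries, 158 to 212 CPM in the Gli1Het control libraries and 129 to 185 CPM in the Gli1Null libraries, and the part of either list in the level of Gjd2 was not tested.

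**Figure D2:**
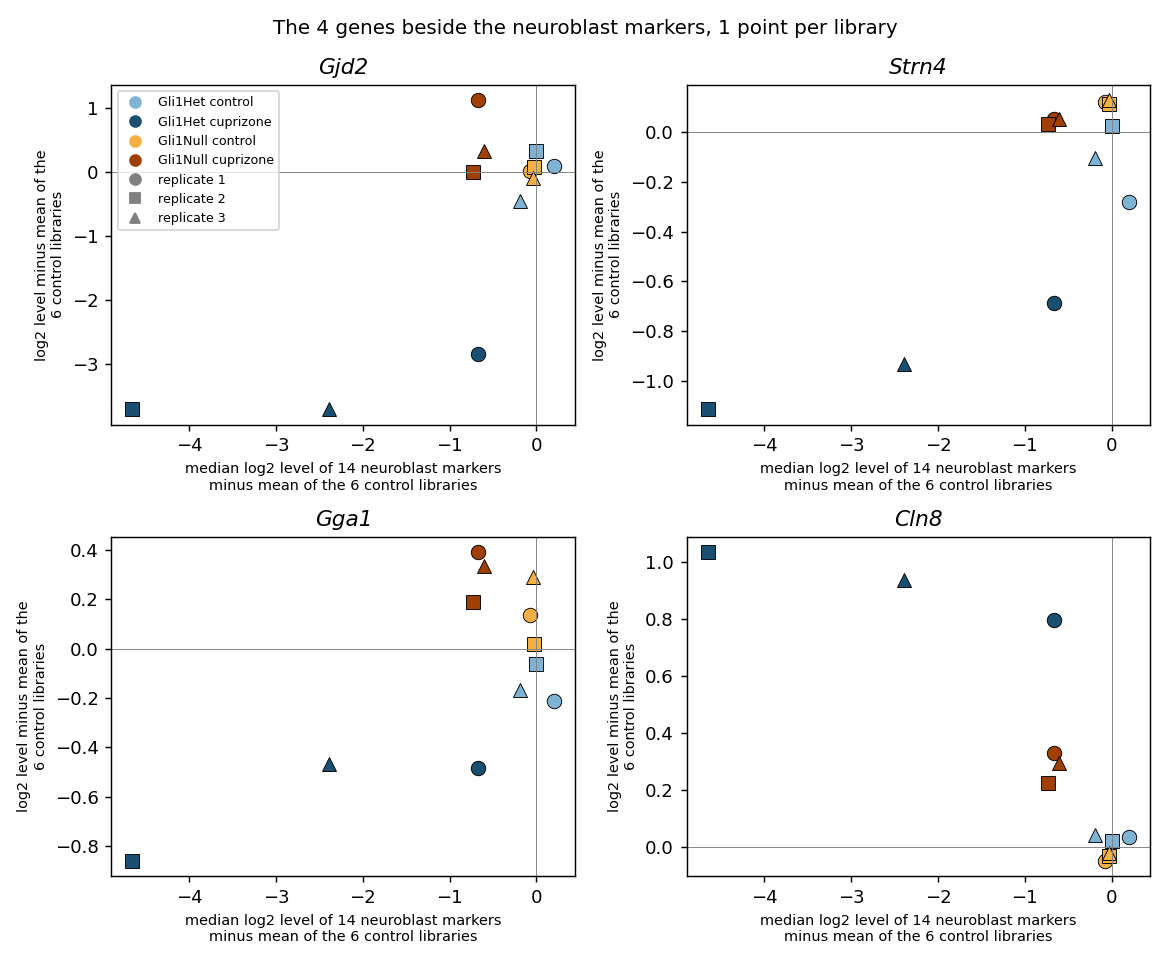
Log2 level of each member (y axis) against the median log2 level of 14 neuroblast markers (x axis) in each library, both less the 6 control libraries' mean, with colours for groups and symbols for replicate numbers. Gli1Het cuprizone replicate 1 shares its place on the x axis (-0.67) with the Gli1Null cuprizone libraries (-0.73 to -0.60) and lies apart from them on the y axis in each panel. That gap is part of the separation on which the members were selected.

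Markers of several other cells moved too. Microglia markers summed to 171 to 253 CPM in the Gli1Het cuprizone libraries, 103 to 120 CPM in the Gli1Null cuprizone libraries and 71.6 to 99.5 CPM in the control libraries. Of 14, 7 were called higher in Gli1Het NSCs on cuprizone (2 without Gli1Het control replicate 2, 4 without Gli1Het control replicate 1 or 3, 5 to 8 without any other library). In Gli1Null NSCs 1 microglia marker was called higher (0 or 1 without 1 library). The median log2 fold change of the 14 was -0.43 there, although their sum was higher. Ependymal markers summed to 245 to 638 CPM in Gli1Het and 147 to 165 CPM in Gli1Null cuprizone libraries, against 55.4 to 119 CPM in the control libraries, and 6 of 10 were called higher in Gli1Het NSCs (5 to 7 without 1 library). Endothelial and mural markers summed to 136 to 171 CPM in the cuprizone libraries of both genotypes and 68.9 to 104 CPM in the control libraries. In Gli1Het NSCs their median log2 fold change was -0.12, with 1 called higher and 2 lower (0 to 3 lower without 1 library). Oligodendrocyte lineage markers summed to 527 to 732 CPM in the Gli1Het cuprizone libraries and to 1215, 414 and 456 CPM in Gli1Het control replicates 1, 2 and 3. Their median log2 fold change was -1.38 in Gli1Het NSCs and -0.14 in Gli1Null NSCs. Of 12, 3 were called higher and 2 lower in Gli1Het NSCs (0 to 5 lower without 1 library). These counts stand beside 18.8% of all genes called higher and 15.3% lower in Gli1Het NSCs, and 3.37% higher in Gli1Null NSCs. No marker of these lists was at 0 in all libraries, and their part in the members' levels was not tested.

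The connexin and pannexin list held 23 genes, of which Gjd3 had no count in any library. Besides Gjd2, 12 of them passed the filter, of which 1 was called higher and 0 lower on cuprizone in either genotype. The counts of this and the following lists stand beside the 18.8% of all genes called higher and 15.3% called lower in Gli1Het NSCs, and 3.37% and 0.25% in Gli1Null NSCs. That 1 was Gjb2, the connexin 26 gene, which rose from 10.1 ± 4.45 to 28.7 ± 2.60 CPM in Gli1Het NSCs (SD, n = 3, log2 fold change 1.495, SE 0.271, adjusted p = 0.00309) and from 9.38 ± 1.96 to 29.5 ± 1.42 CPM in Gli1Null NSCs (log2 fold change 1.68, SE 0.270, adjusted p = 0.00731). Gja1, the connexin 43 gene of astrocytes and NSCs, was the highest of the family per kilobase of exon. It was at 1254 ± 298 and 1461 ± 165 CPM in Gli1Het control and cuprizone NSCs and was not called (adjusted p = 0.369). In Gli1Het NSCs the number called higher was 1 or 2 without any one library, and the number called lower was 3 without Gli1Het cuprizone replicate 1 and 0 without any other. The median log2 fold change of the 12 was 0.02 in Gli1Het and 0.11 in Gli1Null NSCs, against 0.02 and -0.02 over all genes.

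The other striatins did not pass the test on cuprizone. Strn, which encodes striatin, was at 30.2 ± 6.11 CPM in Gli1Het control and 26.4 ± 4.35 CPM in Gli1Het cuprizone NSCs (log2 fold change -0.21, adjusted p = 0.351). Strn3, which encodes the striatin also called SG2NA, was at 155 ± 9.87 and 142 ± 7.64 CPM (log2 fold change -0.14, adjusted p = 0.317). In Gli1Null NSCs both were within 0.1 of no change on the log2 scale. Per kilobase of exon Strn3 (23.4 CPM) and Strn4 (24.0 CPM) were alike in Gli1Het control NSCs, and on cuprizone they were at 21.4 and 14.01 CPM. Of the 22 STRIPAK genes other than Strn4, 4 were called lower and 0 higher in Gli1Het NSCs and 0 in Gli1Null NSCs. The share called lower in Gli1Het NSCs was near the 15.3% of all genes. Among them were Map4k4, a kinase of the complex (log2 fold change -0.93, SE 0.177, adjusted p = 0.00380), Cttnbp2nl (-0.55, 0.130, 0.00979) and Cttnbp2 (-1.09, 0.367, 0.0392). The number was 2 without Gli1Het control replicate 2 or Gli1Het cuprizone replicate 3 and 3 or 4 without any other library, and 2 were called higher without Gli1Het cuprizone replicate 1. The phosphatase subunits Ppp2ca and Ppp2r1a were not called (log2 fold change 0.09 and 0.08, adjusted p = 0.537 and 0.646). The list's median was -0.14 in Gli1Het and 0.04 in Gli1Null NSCs.

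The other GGA adaptors had lower means on cuprizone in both genotypes and passed the test in Gli1Het NSCs. Gga2 fell from 101 ± 4.93 to 56.8 ± 32.2 CPM in Gli1Het NSCs (log2 fold change -0.85, adjusted p = 0.0432) and was at 101 ± 7.94 and 75.3 ± 7.62 CPM in Gli1Null NSCs (-0.39, adjusted p = 0.515). Gga3 fell from 84.8 ± 12.0 to 52.9 ± 21.4 CPM in Gli1Het NSCs (-0.69, adjusted p = 0.0391) and was at 81.6 ± 5.91 and 62.9 ± 4.22 CPM in Gli1Null NSCs (-0.35, adjusted p = 0.464). Both were uneven in Gli1Het cuprizone NSCs. In replicates 1, 2 and 3 Gga2 was at 92.8, 30.7 and 47.0 CPM and Gga3 at 74.9, 32.3 and 51.6 CPM. That was the order of the neuroblast markers, while Gga1 spanned 45.3 to 59.0 CPM. Among the other members, Strn4 (130, 96.5 and 108 CPM) had the same order and Cln8 (110, 130 and 121 CPM) the reverse. Of 24 genes of GGA and AP-1 sorting besides Gga1, 2 were called higher and 8 lower in Gli1Het NSCs. The lower ones included Synrg, an AP-1 partner (log2 fold change -0.70, SE 0.124, adjusted p = 0.00281), and Aftph, another (-0.39, SE 0.0969, 0.0118), and the higher ones were Cltb, a clathrin light chain (0.91, 0.210, 0.00892), and M6pr, the cation-dependent mannose 6-phosphate receptor (0.53, 0.128, 0.0114). The 8 lower calls were 9 without Gli1Het cuprizone replicate 1 and 2 to 4 without any other library. In Gli1Null NSCs 1 was called, Sorl1, a sorting receptor (1.24, SE 0.297, adjusted p = 0.0433), and it was lost without Gli1Het control replicate 2, Gli1Het cuprizone replicate 3 or any one Gli1Null library. The list's median was -0.20 in Gli1Het and -0.10 in Gli1Null NSCs.

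**Figure D3:**
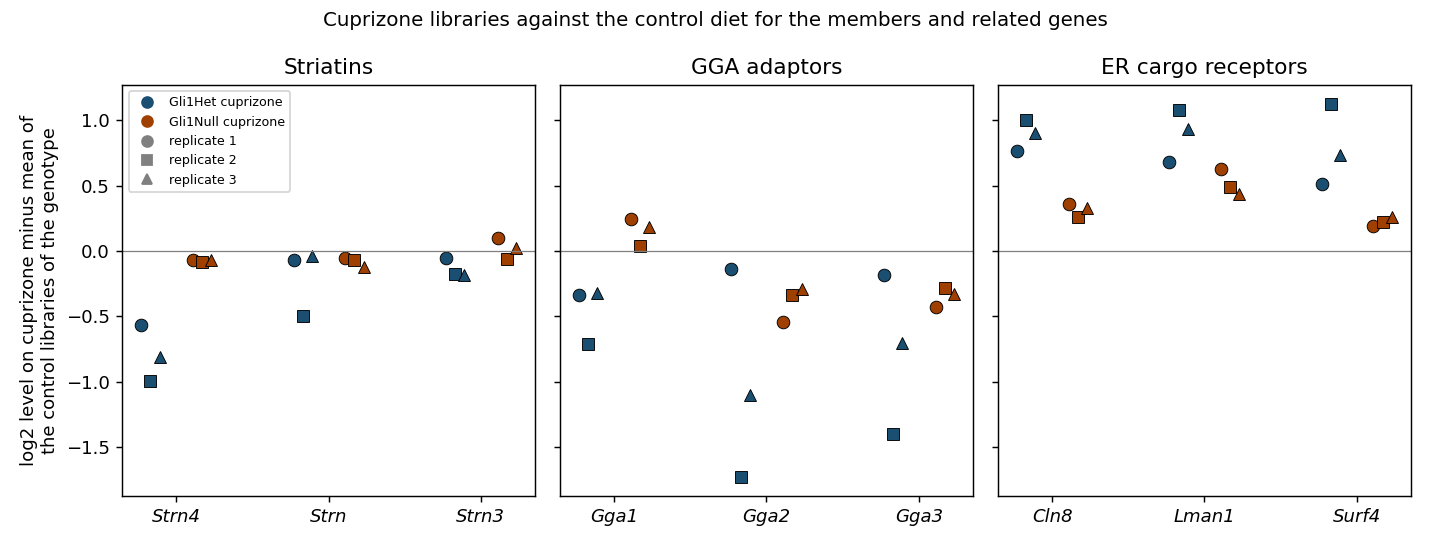
Log2 level of each cuprizone library minus the mean of the control libraries of its genotype (y axis) for Strn4, Gga1 and Cln8 beside 2 related genes each (x axis), with colours for genotypes and symbols for replicate numbers. In Gli1Het Strn4 is at -0.566 to -0.994, Strn3 at -0.182 to -0.0538 and Strn near 0 in replicates 1 and 3 and at -0.497 in replicate 2, Gga2 and Gga3 are below 0 in both genotypes where only the Gli1Het libraries of Gga1 are, and Lman1 and Surf4 are above 0 in both genotypes, as Cln8 is.

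Several ER export receptors rose beside Cln8. Of 21 other genes of this list, 11 were called higher and 0 lower in Gli1Het NSCs and 1 higher in Gli1Null NSCs, with medians of 0.44 and 0.22. The number in Gli1Het NSCs was 5 to 7 without any one of the Gli1Het control libraries, the library labelled Gli1Het cuprizone replicate 2, Gli1Het cuprizone replicate 3 or Gli1Null cuprizone replicate 3, and 8 to 14 without any other library. Lman1, the mannose lectin ERGIC-53 that carries glycoproteins to the Golgi, rose from 74.3 ± 9.81 to 140 ± 19.0 CPM (log2 fold change 0.90, SE 0.126, adjusted p = 0.00104) and in Gli1Null NSCs from 81.6 ± 1.62 to 115 ± 7.13 CPM (0.52, SE 0.125, adjusted p = 0.0434), where 0 of the list were called without Gli1Het control replicate 2, Gli1Het cuprizone replicate 3 or any one Gli1Null library. Surf4, a cargo receptor for secreted proteins, rose from 179 ± 6.56 to 317 ± 71.1 CPM in Gli1Het NSCs (0.81, SE 0.141, adjusted p = 0.00251). Kdelr3, a receptor that returns chaperones to the ER, rose from 2.11 ± 0.553 to 15.7 ± 13.8 CPM (2.89, SE 0.559, adjusted p = 0.00412), and Lman2 from 168 ± 3.93 to 229 ± 7.10 CPM (0.44, SE 0.0919, adjusted p = 0.00590). Cln6, which encodes the ER partner of CLN8, was at 13.0 ± 3.14 and 19.1 ± 5.23 CPM and was not called (adjusted p = 0.0746). Cln3, another gene of the same disease group, was at 38.3 ± 2.27 and 30.5 ± 2.15 CPM (-0.34, SE 0.126, adjusted p = 0.0566).

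Many genes of the soluble lysosomal enzymes, the cargo of CLN8, rose as well. Of 36 genes 22 were called higher and 0 lower in Gli1Het NSCs (17 to 23 without 1 library), with a median log2 fold change of 0.57, and 7 were called higher in Gli1Null NSCs, with a median of 0.40. The 7 were 1 to 3 without any Gli1Null library, 13 without the library labelled Gli1Het cuprizone replicate 2, and 5 to 10 without any other. Ctsl, cathepsin L, went from 133 ± 14.1 to 994 ± 608 CPM in Gli1Het NSCs (2.89, SE 0.356, adjusted p = 0.000578). Hexa rose by 1.15 (SE 0.159, adjusted p = 0.000953) and Ctsd, cathepsin D, by 1.87 (SE 0.270, adjusted p = 0.00120) on the log2 scale. In Gli1Null NSCs those called included Gaa (0.75, SE 0.125, adjusted p = 0.00899) and Manba (1.14, SE 0.228, 0.0214). Among the 12 other genes linked to neuronal ceroid lipofuscinosis, 5 were called higher in Gli1Het NSCs, among them Ctsd, Tpp1, Grn and Ppt1. In the same genotype 1 was called lower, Atp13a2. The 5 were 3 without Gli1Het cuprizone replicate 3 and 4 to 6 without any other library, and the number lower was 0 without Gli1Het control replicate 1 or 2 or Gli1Het cuprizone replicate 3 and 1 or 2 without any other. Tpp1, a lysosomal peptidase, was the 1 called in Gli1Null NSCs (0.94, SE 0.197, adjusted p = 0.0252), with 0 called without any one Gli1Null library, 4 without the library labelled Gli1Het cuprizone replicate 2, 2 without Gli1Het cuprizone replicate 1 and 1 without any other. Within the TLC domain family, to which Cln8 belongs, 4 of 15 were called higher in Gli1Het NSCs, Tmem56, Tram2, Cers2 and Tram1, and 1 lower, the ceramide synthase gene Cers4. The 4 were 1 without Gli1Het control replicate 2 and 3 to 6 without any other library, and the 1 lower was 0 without Gli1Het control replicate 1 or Gli1Het cuprizone replicate 3 and 3 without Gli1Het cuprizone replicate 1. In every one of these lists 0 genes other than the members were called between the genotypes on either diet.

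**Figure D4:**
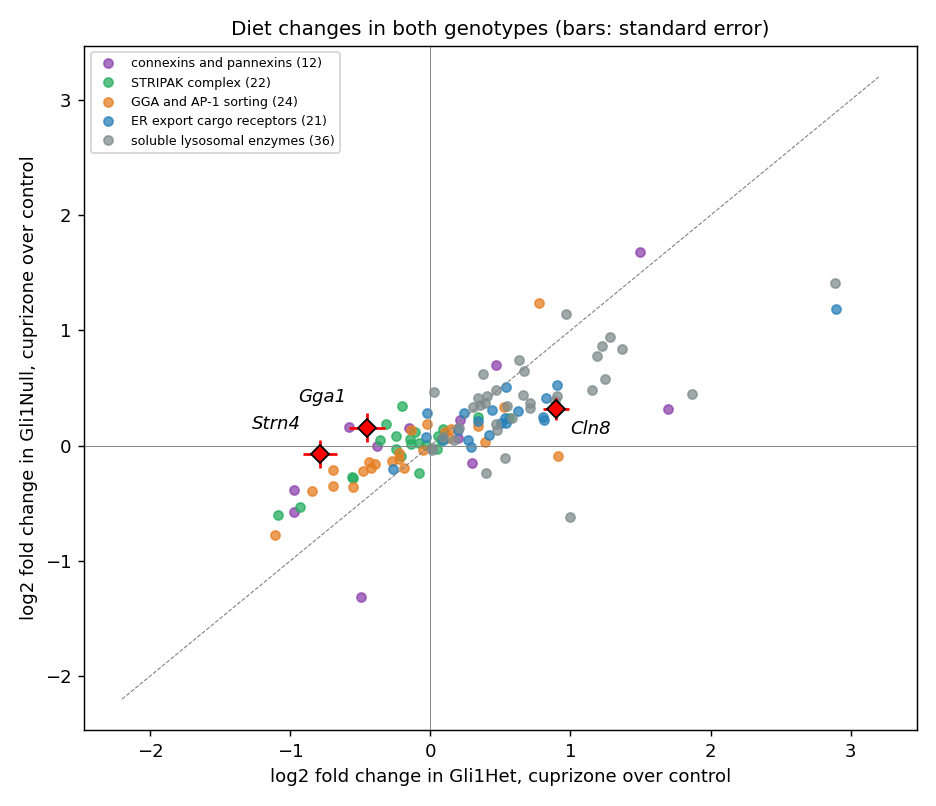
Log2 fold change of cuprizone over control in Gli1Null NSCs (y axis) against that in Gli1Het NSCs (x axis) for the genes of 5 lists, 1 point per gene, with Strn4, Gga1 and Cln8 as diamonds with SEs and a dashed line of equal change. Cln8 lies at 0.89 and 0.32, Strn4 at -0.79 and -0.07 and Gga1 at -0.45 and 0.16, and Gjd2 is left out because its fitted value in Gli1Het rests on 1 count.

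The genes beside the members on the chromosome had their own patterns. Before Strn4, Slc1a5, a glutamine transporter gene, rose in both genotypes (2.74 and 2.01, adjusted p = 0.000358 and 0.00398), and Prkd2, 1971 bases after Strn4, was not called (0.04, adjusted p = 0.880). Arhgef10, after Cln8, rose alike in both genotypes (0.60 and 0.62, adjusted p = 0.0129 and 0.0469), and Dlgap2, before it, was not called. Beside Gga1, Lgals2 rose in Gli1Het NSCs from 0.235 to 0.993 CPM (adjusted p = 0.0245) and Sh3bp1 was not called (adjusted p = 0.131). Arhgap11a, before Gjd2, fell in Gli1Het NSCs from 136 ± 18.9 to 53.9 ± 19.8 CPM (-1.35, adjusted p = 0.00231), and Actc1, after it, had 0 to 3 counts per group. The first exon of Gjd2 shares 57 and 18 bases with 2 antisense models of A530058N18Rik, which had 0 to 1 and 5 to 18 counts per group. The strand setting of the counting is not given in the sources used here. Reads from those bases cannot be assigned to one strand.

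Across the 12 libraries the members were correlated, as the selection made likely, and less so by rank. On log2 CPM, Pearson's r was 0.95 between Gjd2 and Strn4, 0.88 between Gjd2 and Gga1, 0.92 between Strn4 and Gga1, -0.91 between Strn4 and Cln8, -0.88 between Gjd2 and Cln8, and -0.72 between Gga1 and Cln8, while Spearman's rho was 0.53, 0.68, 0.84, -0.76, -0.43 and -0.40. Among 12116 genes with a mean of at least 5 CPM, the 5 most like Strn4 were Sfpq (r = 0.98), Marcks, Btbd2, Mapk8ip1 and Foxk2 (r = 0.97 each), and the most opposite were Nt5c, Anxa4 and Cd68 (r = -0.95 each). The 5 most like Gga1 were Btbd2 (r = 0.96), Snrk (0.95), Mapk8ip1 (0.94), Snx11 (0.94) and Apcdd1 (0.94), with Cd68 (-0.94), Snhg20 (-0.93) and Wdr60 (-0.93) most opposite. For Gjd2 they were Zfp2 (0.96), Prune (0.96), Strn4, Plekhm1 (0.95) and Tbc1d20 (0.95), with Trmt1 (-0.95), Dnal1 (-0.94) and Wdr60 (-0.94) most opposite. For Cln8 they were Hexim1 (0.98), Mok (0.98), Aff1 (0.97), Sft2d3 (0.97) and Wars (0.97), with Nyap1 (-0.98), Aldh16a1 (-0.98) and Hat1 (-0.98) most opposite. Btbd2 and Mapk8ip1 were thus among the 5 most like both Strn4 and Gga1. The libraries share their groups and the unevenness of the Gli1Het cuprizone group, so these values describe the 12 libraries and carry no test.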

How the data were processed

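RNA-seq was made from FACS-sorted GFP+ SVZ NSCs with SMART-Seq v4 and Nextera XT libraries, 3 libraries per group and 2 mice pooled in each. The authors used FastQC 0.11.5 for read quality, TopHat2 2.1.1 for alignment to mm10 and HTSeq 0.11.1 for counts per gene. They deposited these counts and a second table, a signal in which the counts had been divided by DESeq2 1.12 size factors. The authors' comparison columns, which hold fold changes and p-values, were not used. Dividing the deposited signal by its step gave whole reads (within 0.01) for 100% of values. The step was set from the deposited counts, so this compares the 2 tables and is no separate recovery of the reads. The whole reads equalled the deposited counts, so edgeR was not run on them again. Its 0, 5995, 638 and 7 calls hold for both. Whether the counting used strand is not given in the sources used here, and a read shared by overlapping genes may be lost.

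Each count was read with the gene ID in its own cell, because the first column named another gene on 33998 lines. Of 37991 genes, 33092 had a name in the tables and 4899 had none. Reads that HTSeq assigned to no counted feature of a gene were 54.5% to 58.4% of uniquely aligned reads and stayed out of library sizes. The expression filter of edgeR at a minimum count of 10 left 17623 genes. Levels are CPM, or CPM per kilobase of exon of GENCODE M21. The main test was edgeR 4.0.16 in R 4.3.3 (TMM, quasi-likelihood, all 4 groups in 1 fit, no covariate), with a threshold of 0.05 on the Benjamini-Hochberg adjusted p, checked on simulated counts. Log2 levels of single libraries used a prior count of 2. The level that a count of 0 allows was set at 3 counts per library, and intervals are exact at 95%. Alternatives were DESeq2 1.42.0 with its size factors, edgeR without the filter, on 2 groups or with a replicate block, limma 3.58.1 with library quality weights, and each library left out in turn. Python 3.11.15 with pandas 2.3.3, scipy 1.17.1 and matplotlib 3.10.9 was used for the remaining values. Depth was 13752801 to 32468063 counts in genes per library, so a gene near 1 CPM, such as Gjd2, rests on few reads. The 4 members and all gene lists were chosen with earlier results of these data known. The genes named are the members and Gli1, the members' close relatives, up to 4 genes of each list with the lowest adjusted p among those called (otherwise the 2 with the highest mean level), the nearest or overlapping genes, the genes on either side of the threshold, and the 5 most alike and 3 most opposite genes by Pearson's r among those with a mean of at least 5 CPM. Ppt1, Atp13a2 and Tram1 were named after their values were seen, to complete a count. Some genes that this rule would name are not reported here.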

Additional observations from a re-analysis of the deposited data

Results flagged for a closer look

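Gga1 lay on opposite sides of its control mean in the cuprizone libraries of the genotypes, although its difference in Gli1Null NSCs did not pass the test. On the log2 scale, set against the control mean of its own genotype, it was at -0.338, -0.713 and -0.320 in Gli1Het cuprizone replicates 1, 2 and 3 and at 0.243, 0.0418 and 0.186 in Gli1Null cuprizone replicates 1, 2 and 3. Every Gli1Het cuprizone library was thus below the control mean of its genotype and every Gli1Null cuprizone library above its own, and this difference between the genotypes was not tested. Gga1 was selected for its separation on cuprizone, so the pattern is a description. In 2 of the Gli1Null libraries the level lay above the highest control library, and the replicate 2 value is within the control spread.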

How the results depend on the processing

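Over the alternatives, 206 of 216 results of the members in the tested comparisons kept their direction and their side of the threshold. The exceptions were the 2 lost calls of Gga1 in Gli1Het NSCs and the 5 gained calls of Cln8 in Gli1Null NSCs given in the report, and 3 changes of sign of Gjd2 between the genotypes on the control diet, where it was not called. Its log2 fold change of 0.02 was -0.01 without Gli1Het control replicate 1, -0.18 without Gli1Het control replicate 2 and -0.03 without Gli1Null control replicate 3, in a range of -0.18 to 0.23 without 1 library. The counts over all genes moved more. Between the genotypes on the control diet the count of 0 was 1 with DESeq2, edgeR on the 2 groups alone or limma, and 0 to 1 without 1 library. For diet in Gli1Het NSCs 5995 calls were 961 with edgeR on 2 groups, 10013 with limma and 3173 to 8496 without 1 library. For diet in Gli1Null NSCs 638 calls were 1321 with DESeq2, 4193 with edgeR on 2 groups, 4634 with limma and 140 to 1888 without 1 library. Between the genotypes on cuprizone 7 calls were 1719 with DESeq2, 1 with edgeR on 2 groups, 469 without the filter, 6674 with limma and 0 to 5096 without 1 library, the highest being without Gli1Het cuprizone replicate 1. Genes of the 7 lists called were 56, 11 and 0 for diet in Gli1Het, diet in Gli1Null and genotype on cuprizone, and 32 to 73, 2 to 23 and 0 to 38 without 1 library. The cause was not tested. The labels' replicate numbers did not pair the libraries, since 2 of 18 same-numbered pairs correlated above 0.1 (range -0.173 to 0.173) and 1 of 12 libraries correlated best with its own number. The fit with a replicate block called 0, 5223, 400 and 1 genes. It changed no call of the members in the control diet and diet comparisons, and between the genotypes on cuprizone, where the 4 members were among the 7 genes past the threshold, it left 1 gene in all. The log2 fold change of Gjd2 between the genotypes on cuprizone, -6.03, was -5.19 with limma, -8.24 without Gli1Het cuprizone replicate 1 and -5.22 without the library labelled Gli1Het cuprizone replicate 2, since it rests on 1 count. The 5 genes most like each member by Spearman's rho shared 2 with those by Pearson's r for Strn4 and Gga1 and 0 for Gjd2 and Cln8.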
